A study of Homo sapiens with 2 samples.

Results

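Accessible chromatin at the loci of CDK6, CCND2 and CCND3, genes that drive cells through the G1 phase, was compared between RPMI-8402 and Jurkat. Both are established human lines of T-cell acute lymphoblastic leukaemia (T-ALL), and each was profiled by ATAC-seq with 1 library. Members are the peaks with a summit in 1 of 3 windows on hg19, namely positions 92200000 to 92520000 of chromosome 7 (CDK6), 4300000 to 4450000 of chromosome 12 (CCND2) and 41880000 to 42030000 of chromosome 6 (CCND3). These windows hold 46 peaks, 22 of 24603 in RPMI-8402 and 24 of 25189 in Jurkat. Both lines grew in RPMI-1640 medium with tetracycline-free serum, and the labels give no drug treatment, genetic change, clone or passage. With no replicate, no difference between the lines was tested. Every interval below covers the error of counting alone, and duplicate PCR fragments, if any were kept, would add to the true error. In a bulk library, fewer cells with an open site and a less open site in every cell cannot be told apart.

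D-type cyclins, of which CCND2 and CCND3 encode cyclin D2 and cyclin D3, are made in response to growth signals and bind the kinases CDK4 and CDK6. The active complex phosphorylates the retinoblastoma protein, which releases E2F factors and lets the cell enter S phase, and INK4 inhibitors block the kinase. Cyclin D3 and CDK6 are the forms best known from dividing thymocytes, and in mice the loss of cyclin D3 impairs thymocyte expansion and Notch-driven T-cell leukaemia.

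The strength of a site is given as its summit pileup, the number of fragments over the highest base of a peak. It was solved from the fold enrichment and p-value that the authors' peak caller gave. The median over all peaks was 38 fragments in RPMI-8402 and 37 in Jurkat. Pileup ratios between the lines are RPMI-8402 over Jurkat, centred on the median of all 16494 shared pairs, whose uncentred log2 value was −0.17. A shared pair consists of 1 peak of each list that overlap each other by at least 1 bp and overlap no further peak. The background solved with each pileup counts fragment ends in the 10 kb around the summit, and so gives a second, wider reading of the same place.

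The sequences before the annotated starts of CDK6 and CCND3 are shown because the peaks there are compared between the lines below. RefSeq on GRCh38.p14 lists 2 starts for CDK6 and 3 for CCND3, both on the minus strand, and the table matched 2 of the 3 genes. The 250 bases before each start are printed 5′ to 3′ on the strand of the gene, for the starts that have a peak at a matching distance. Capitals mark matches, on either strand, to 3 of the 8 letter patterns searched (GGGCGG, the GC box, CCAAT and TTCCGG, a core of ETS factor sites).
CDK6, upstream start, chr7:92836574-92836823: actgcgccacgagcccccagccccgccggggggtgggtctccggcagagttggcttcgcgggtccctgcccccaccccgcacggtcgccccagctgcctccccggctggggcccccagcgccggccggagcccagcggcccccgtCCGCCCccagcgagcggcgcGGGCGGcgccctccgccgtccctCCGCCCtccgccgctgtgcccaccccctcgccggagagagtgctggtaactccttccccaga
CDK6, downstream start, chr7:92833960-92834209: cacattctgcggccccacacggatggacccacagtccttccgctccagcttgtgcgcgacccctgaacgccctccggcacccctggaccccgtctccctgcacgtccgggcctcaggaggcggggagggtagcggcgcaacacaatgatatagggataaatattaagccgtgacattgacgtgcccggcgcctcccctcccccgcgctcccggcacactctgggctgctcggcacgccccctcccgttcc
CCND3, outermost start, chr6:42048689-42048938: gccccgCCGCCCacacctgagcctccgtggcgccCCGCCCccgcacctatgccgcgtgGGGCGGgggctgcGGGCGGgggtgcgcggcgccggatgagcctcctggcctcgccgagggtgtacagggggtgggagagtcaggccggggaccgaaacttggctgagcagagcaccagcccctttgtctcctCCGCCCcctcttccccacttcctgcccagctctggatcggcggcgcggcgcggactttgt
CCND3, inner start, chr6:41941809-41942058: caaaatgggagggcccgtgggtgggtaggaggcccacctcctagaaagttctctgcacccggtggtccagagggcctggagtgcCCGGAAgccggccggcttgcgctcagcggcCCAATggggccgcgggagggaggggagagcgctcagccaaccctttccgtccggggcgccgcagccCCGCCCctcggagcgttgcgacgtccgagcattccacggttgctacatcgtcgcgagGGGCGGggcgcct
These windows are rich in CpG. The GC content was 80.0% and 67.6% before the upstream and downstream CDK6 starts, and 74.4% and 71.2% before the outermost and inner CCND3 starts, against a median of 58% over all 35116 promoters of the table. CpG dinucleotides numbered 30, 23, 26 and 26, against a median of 11. GGGCGG matched 3 times before the upstream CDK6 start, 5 times before the outermost and 2 times before the inner CCND3 start, and it occurs in 42.6% of all promoters of this length. CCAAT and TTCCGG each matched 1 time before the inner CCND3 start, and they occur in 32.0% and 14.5% of promoters. The downstream CDK6 start had no match to any pattern. TATAAA, TTTGGCGC and TTTCCCGC (E2F), TGTGGT (RUNX) and CACGTG (E box) had no match before the 4 starts, and occur in 10.7%, 0.550%, 1.39%, 10.98% and 6.34% of promoters. A match describes letters only, and positions were not carried between GRCh38 and hg19.

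CDK6, the kinase, had fewer peaks in RPMI-8402 than in Jurkat as deposited, and the peaks called in Jurkat only lay inside the gene. The window held 9 peaks in RPMI-8402 and 14 in Jurkat, a ratio of 0.643 (95% exact interval 0.245 to 1.59, which holds 1), and 6 and 12 of them had their summits in the gene body. All 7 peaks that overlapped no peak of the other line in Jurkat were in the gene body, while 2 peaks were called in RPMI-8402 only. Line-only peaks made up 31.9% of the RPMI-8402 list and 32.6% of the Jurkat list, and the 7 of 14 in Jurkat were above that share, with an exact interval of 23.04 to 76.96% for the shared 50% that holds the list's 67.4%. Shared peaks numbered 7 per line. A window of 320 kb held 2.59 RPMI-8402 and 2.65 Jurkat peaks on average. Of such windows tiled over chromosomes 1 to 22 and X, 4.17% and 0.790% held at least as many. Many tiles hold no peak, and over tiles with at least 1 peak the shares were 5.51% and 1.10%.

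**Figure D1:**
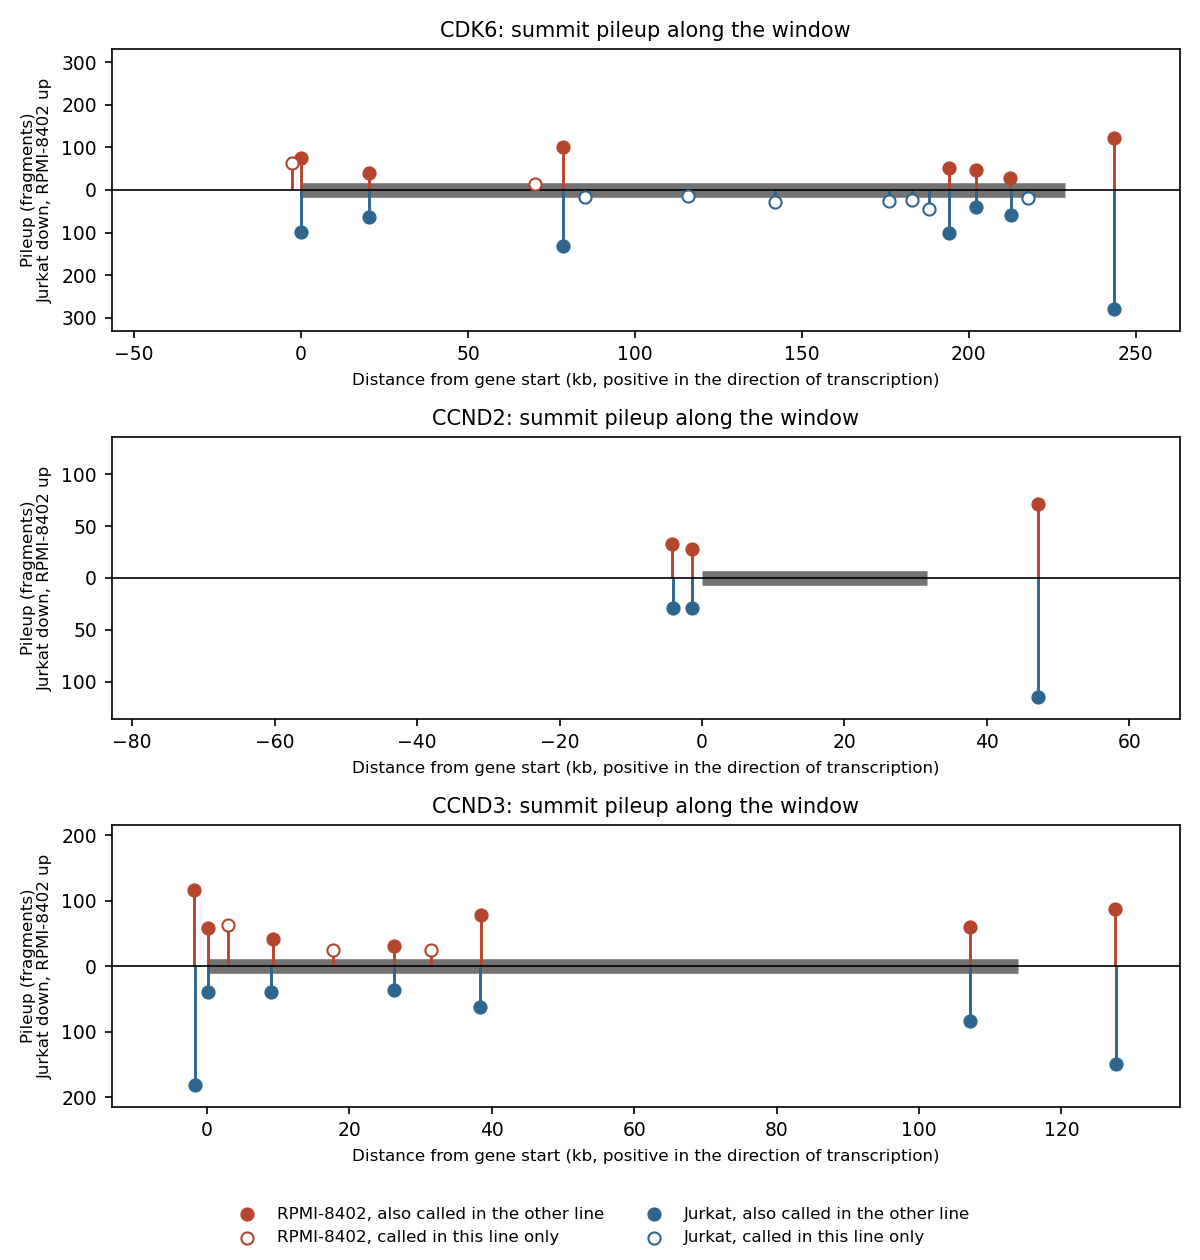
Summit pileup (vertical axis, fragments, RPMI-8402 upward and Jurkat downward) of every peak in the 3 windows against the distance from the gene start (horizontal axis, kb), with the gene body as a grey bar, filled points for peaks also called in the other line and open points for the others. The open Jurkat points lie in the CDK6 body, the CCND2 body holds no peak, and CCND3 has 3 open points, all RPMI-8402.

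The CDK6 start was open in both lines. RPMI-8402 had a peak 1296 bp wide at chr7:92462448-92463743 with a pileup of 75 (95% Poisson interval 59.0 to 94.0), and Jurkat had one 1432 bp wide at chr7:92462155-92463586 with a pileup of 98 (79.6 to 119). The summits lay 70 bp and 71 bp before the gene start used here. Both peaks were among the widest of their lists, wider than 93.3% and 97.9% of peaks. The centred ratio was 0.861 (0.629 to 1.17), an interval that holds 1. The count of fragment ends in the surrounding 10 kb was 1128 in RPMI-8402 and 1019 in Jurkat, higher than at 96.8% and 94.2% of peaks, with a centred ratio of 1.24 (1.14 to 1.35). The interval of the wider count lay above 1, while the summit showed no difference beyond counting error. In RPMI-8402 the wider count also covers a peak 2603 bp away that was called in that line only.

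RPMI-8402 had a further peak, called in that line only, at chr7:92465748-92466199, with a pileup of 63 (48.4 to 80.6) and 1094 fragment ends in 10 kb. Its deposited fold enrichment was 3.57, above only 1.80% of RPMI-8402 peaks. Its summit lay 2603 bp from the summit at the gene start. The 2 RefSeq starts of CDK6 lie 2614 bp apart on GRCh38. The pair of RPMI-8402 summits thus had nearly the spacing of the pair of annotated starts. CDK6-AS1, a long non-coding RNA gene, is among the genes that follow CDK6 toward higher coordinates in RefSeq. Which gene this peak belongs to was not analysed here. At the median ratio the pileup of 63 would correspond to 70.9 in Jurkat. If the Jurkat background stood in the same proportion to its genome-wide value, the lowest pileup that could be called there would be 32. A weaker Jurkat site, below that level, would not be detectable. With the list divided into 10 equal classes by −log10 q, 65.6% of the RPMI-8402 peaks in the same class overlapped a Jurkat peak.

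Within the CDK6 body, the strongest shared peak lay 78.6 kb past the start and had the same summit base in both lines. Its pileup was 102 in RPMI-8402 (83.2 to 124) and 131 in Jurkat (110 to 155), a centred ratio of 0.876 (0.669 to 1.14). The next shared peak, 20.2 kb past the start in RPMI-8402, had 39 fragments in RPMI-8402 and 63 in Jurkat, with a ratio of 0.696 (0.455 to 1.05). The intervals of both pairs held 1. Farther along, 3 shared peaks stood near each other toward the end of the gene. At 194.2 kb the pileup was 52 in RPMI-8402 and 101 in Jurkat, a ratio of 0.579 (0.406 to 0.817). At 212.5 kb it was 27 in RPMI-8402 and 60 in Jurkat, a ratio of 0.506 (0.309 to 0.810). Between them, at 202.2 kb, the order was the other way, with 46 fragments in RPMI-8402 and 40 in Jurkat, a ratio of 1.29 (0.828 to 2.03) whose interval held 1.

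The 10-kb counts were lower in RPMI-8402 around all 3 of these peaks. Around the peak at 194.2 kb, RPMI-8402 had 327 fragment ends and Jurkat 942, a centred ratio of 0.389 (0.342 to 0.441), and 0.638% of pairs had a lower one. Around 212.5 kb the counts were 214 in RPMI-8402 and 441 in Jurkat, a ratio of 0.544 (0.459 to 0.641), and around 202.2 kb they were 274 in RPMI-8402 and 402 in Jurkat, a ratio of 0.763 (0.652 to 0.892). The intervals of the 10-kb ratios lay below 1 for 6 of the 7 CDK6 pairs, of which 5 were in the gene body and 1 beyond its end, and above 1 for the pair at the start. These intervals are narrow, and over all 15358 pairs with such counts 34.5% lay below 1 and 34.3% above.

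Jurkat-only peaks filled the middle of the CDK6 body. A run of 6 consecutive Jurkat-only peaks covered 103.5 kb, chr7:92274869-92378414, and the RPMI-8402 list held no peak for 115 kb around it. Of 5604 Jurkat-only runs in the genome, 41 were at least as long in number of peaks, and 28.3% of the gaps between neighbouring RPMI-8402 peaks were at least as wide. The peaks of the run were narrow and mostly weak. In the direction of transcription their pileups were 16, 15, 28, 27, 23 and 44 fragments, and the remaining Jurkat-only peak, at 217.8 kb, had 19. The median of the 7, 23 fragments, was close to the 19 of all 8200 Jurkat-only peaks. The strongest, at chr7:92274869-92275214, exceeded 92.1% of Jurkat-only peaks, and 642 fragment ends surrounded it. At the median ratio, 5 of the 7 would lie at or above the lowest callable RPMI-8402 pileup, estimated as above, and 2 below it. This estimate uses pileup alone. The peaks of 19 and 15 fragments were 265 and 273 bp wide, while the narrowest peak of the RPMI-8402 list had 309 bp. The effect of width on these calls was not tested. With −log10 q of at least 10 in both lists, the window held 8 RPMI-8402 and 9 Jurkat peaks. Of these, 87.5% and 77.8% were shared. Among the 10000 strongest peaks of each list it held 4 and 6, with 75% and 50% shared. The difference in number thus nearly closed under the first cut-off but not under the second. The remaining RPMI-8402-only peak, 69.97 kb past the start, had a pileup of 13, against 10 for the weakest peak of that list.

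The strongest peak of the CDK6 window lay beyond the end of the gene. It had a pileup of 121 (100.4 to 145) in RPMI-8402 at chr7:92219064-92219853 and of 280 (248 to 315) in Jurkat at chr7:92219120-92219854. The centred ratio was 0.486 (0.390 to 0.604), and 4.33% of pairs had a lower one. This was the only pair of all 17 in the 3 windows that differed by at least 2-fold, where 14.1% of all pairs did, 9.21% being higher in RPMI-8402 and 4.89% higher in Jurkat. Centring on chromosome 7, whose 845 pairs had a median log2 ratio of −0.26, on the pairs within 5 Mb, or on the deposited fold brought it under 2-fold. Its summit was 243710 bp in RPMI-8402 and 243695 bp in Jurkat from the summit at the CDK6 start. On GRCh38 the starts of FAM133B, the next protein-coding gene on that side, lie 243569 and 243910 bp from the downstream CDK6 start. The peak therefore sits at a distance that matches the neighbour's start and is not shown to belong to CDK6.

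**Figure D2:**
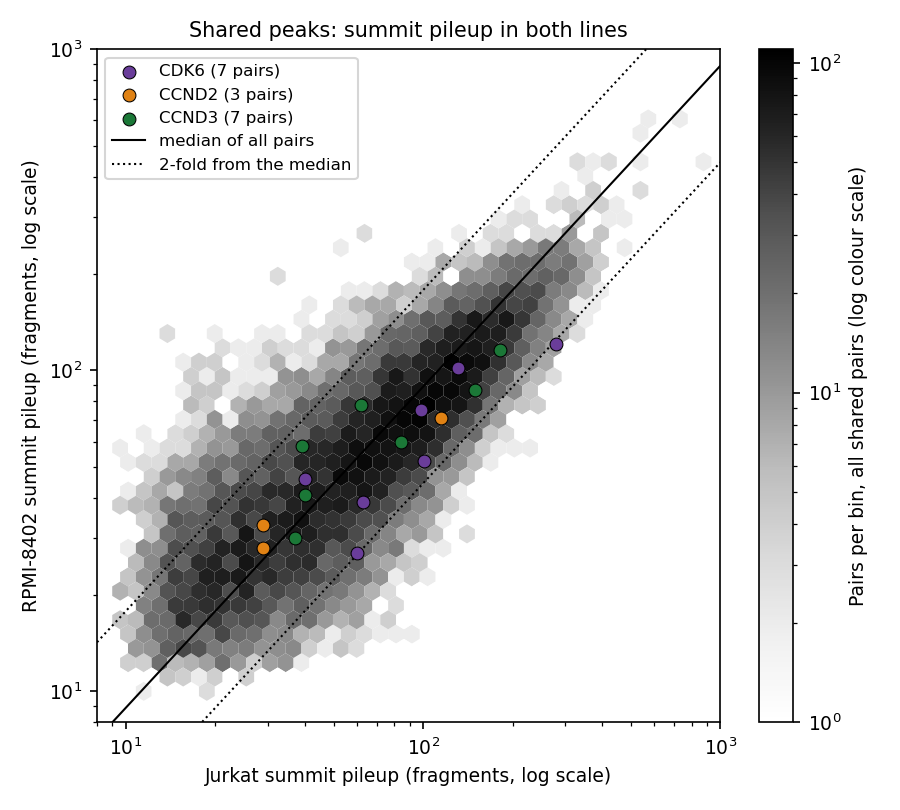
RPMI-8402 summit pileup (vertical axis, fragments, log scale) against Jurkat summit pileup (horizontal axis, fragments, log scale) for the 17 shared pairs of the 3 windows (coloured points) over all 16494 shared pairs (grey hexagons, darker for more pairs), with the median ratio (solid line) and 2-fold limits (dotted lines). The point past the lower 2-fold limit is the pair of 121 and 280 fragments in the CDK6 window, and 6 of the 7 CDK6 points lie under the solid line.

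Over all 7 CDK6 pairs the median log2 ratio was −0.52, with a range of −1.04 to 0.37, and 6 of 7 were below 0. Shared pairs within 5 Mb of the window had a median of −0.04 (32 pairs, 25th to 75th percentile −0.45 to 0.47). The locus median was below 0 under every scaling tried, with values from −0.99 to −0.10. Summed over the window, including line-only peaks, pileups came to 538 in RPMI-8402 over 6584 bp of peaks and 945 in Jurkat over 8069 bp, with means per peak of 59.8 and 67.5. The scaled ratio of these sums was 0.640 (0.575 to 0.713). Both the sums and the 7 pairs include the peak of 121 and 280 fragments beyond the gene end, not shown to belong to CDK6. The sums were scaled by the median of all pairs and not by that of chromosome 7.

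CCND2, which encodes cyclin D2, had the fewest peaks of the 3 windows in both lines. Each line had 3 peaks in the window, all 3 shared, and no summit in either line lay in the gene body of 31.6 kb. On average 150-kb windows held 1.21 RPMI-8402 and 1.24 Jurkat peaks, and 15.8% and 17.4% of them held 3 or more. Over windows with at least 1 peak, 27.8% and 32.2% did. The gene is transcribed toward higher coordinates, and 2 of its peaks lay just before its start. The nearer one, 1461 bp before the start in RPMI-8402 and 1433 bp in Jurkat, had a pileup of 28 (18.6 to 40.5) at chr12:4381252-4381751 in RPMI-8402 and of 29 (19.4 to 41.6) at chr12:4381388-4381842 in Jurkat. The ratio was 1.09 (0.623 to 1.89). The farther one had 33 fragments (22.7 to 46.3) at chr12:4378435-4378956 in RPMI-8402 and 29 (19.4 to 41.6) at chr12:4378430-4378955 in Jurkat, a ratio of 1.28 (0.754 to 2.19). Neither difference exceeded counting error.

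Both upstream CCND2 peaks were below the median pileup of their lists, yet their surroundings were not poor in fragments. The 10-kb counts were 493 in RPMI-8402 and 435 in Jurkat around the nearer peak, above 76.3% and 66.3% of peaks. Around the farther one they were 443 in RPMI-8402 and 414 in Jurkat. The fold enrichment of the nearer peak, as deposited, was 3.36 in RPMI-8402 and 4.49 in Jurkat, higher than only 1.13% and 8.22% of peaks. CCND2-AS1, a long non-coding RNA gene, neighbours CCND2 on this side in RefSeq, and which gene the peaks belong to was not analysed here.

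The strongest peak of the CCND2 window lay 47.2 kb past the start, beyond the end of the gene. Its pileup was 71 (55.5 to 89.6) in RPMI-8402 and 115 (94.9 to 138) in Jurkat, a ratio of 0.695 (0.509 to 0.942), with 388 and 591 fragment ends in 10 kb. TIGAR, a regulator of glycolysis, is the next gene on that side in RefSeq. The median log2 ratio of the 3 pairs was 0.12, and it turned to −0.35 when scaled by the genome-wide backgrounds, to −0.05 unscaled and to −0.13 on the deposited fold, so no direction is given for this locus. The 84 pairs within 5 Mb had a median of 0.05. Summed pileups were 132 in RPMI-8402 over 1873 bp of peaks and 173 in Jurkat over 1882 bp, a scaled ratio of 0.858 (0.679 to 1.08) whose interval held 1.

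CCND3, which encodes cyclin D3, had the densest set of peaks, and its line-only calls as deposited were all in RPMI-8402. Its window held 10 peaks in RPMI-8402 and 7 in Jurkat, a ratio of 1.43 (0.491 to 4.42), and 8 and 5 of them lay in the gene body. All 7 Jurkat peaks were shared (exact interval 59.0 to 100%), while 3 of 10 RPMI-8402 peaks were not, close to the 31.9% of that list. The share of Jurkat peaks without a partner, 0 of 7, stood against 32.6% of all Jurkat peaks. At −log10 q of at least 10 the window held 9 peaks in RPMI-8402 and 6 in Jurkat, with 66.7% and 100% shared. Among the 10000 strongest peaks of each list the balance turned round, with 3 peaks in RPMI-8402, 100% shared, and 4 in Jurkat, 75% shared. Among 150-kb windows, 0.168% held at least 10 RPMI-8402 peaks and 1.67% at least 7 Jurkat peaks. Over windows with at least 1 peak the shares were 0.295% and 3.08%. The window was chosen with earlier results known, and the density was not tested.

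At the outermost CCND3 start the peak was stronger in RPMI-8402 on the centred ratio. Its pileup was 58 (44.04 to 74.98) at chr6:42016177-42016692 in RPMI-8402 and 39 (27.7 to 53.3) at chr6:42016264-42016639 in Jurkat. The summits lay 103 and 106 bp inside the gene, 3 bp apart. The centred ratio was 1.67 (1.10 to 2.58), a log2 value of 0.74 (0.13 to 1.37). The ratio itself stayed above 1 under each scaling tried, with log2 values from 0.27 to 0.75. The log2 value was 0.57 both unscaled and centred on nearby pairs, and 0.27 when scaled by the genome-wide backgrounds. Each of these settings lowers the whole log2 interval by more than 0.13, so the interval of the ratio then holds 1. A counting interval above the median ratio was found at 18.8% of all pairs. The 10-kb counts were 988 in RPMI-8402 and 897 in Jurkat, a ratio of 1.23 (1.13 to 1.35).

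A much stronger peak stood upstream of that start and was weaker in RPMI-8402. With 116 fragments (95.9 to 139) in RPMI-8402 at chr6:42018040-42018568 and 182 (157 to 210) in Jurkat at chr6:42018084-42018645, it was the strongest peak of the window in both lines and the strongest within 2 kb of the CCND3 start. Its summits lay 1796 and 1741 bp before the start. The centred ratio was 0.717 (0.563 to 0.910). The 10-kb count was higher in RPMI-8402, 910 against 808 in Jurkat, a ratio of 1.26 (1.15 to 1.39). Here the summit and the 10-kb count pointed in opposite directions. The next protein-coding gene above CCND3 in RefSeq is TAF8, a subunit of the TFIID complex, and which gene the peak belongs to was not analysed here.

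Inside the first part of CCND3, RPMI-8402 had 3 peaks that Jurkat lacked. The first, 2.96 kb past the start at chr6:42013497-42013821, had a pileup of 63 (48.4 to 80.6), more than 96.2% of RPMI-8402-only peaks, and was only 325 bp wide where the narrowest peak of the list had 309 bp. It lay in the dense region around the start, with 1039 fragment ends in 10 kb, above 95.8% of peaks. Against that background its deposited fold enrichment was 3.75, above only 2.67% of RPMI-8402 peaks. The others, 17.8 and 31.5 kb past the start, had 24 fragments each (15.4 to 35.7). At the median ratio all 3 would exceed the lowest pileup estimated to be callable in Jurkat, with 70.9 against 31, 27 against 13 and 27 against 11 fragments. Of RPMI-8402 peaks in their strength classes, 65.6%, 45.4% and 54.9% overlapped a Jurkat peak.

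At the shared peaks between and next past them, ratios ran from 0.912 to 1.42. At 9.23 kb the pileup was 41 in RPMI-8402 and 40 in Jurkat, a ratio of 1.15 (0.728 to 1.83), and at 26.2 kb it was 30 in RPMI-8402 and 37 in Jurkat, a ratio of 0.912 (0.544 to 1.52). At 38.5 kb it was 78 in RPMI-8402 and 62 in Jurkat, a ratio of 1.42 (1.001 to 2.01), and the summits there lay 225 bp apart, the largest shift among the 17 pairs, whose median shift was 33 bp against 67 bp for all pairs. The interval lay just above 1 for this pair and held 1 for the others.

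Near the far end of the gene a wide peak lay at about the distance of the inner CCND3 start. It was 1190 bp wide with a pileup of 60 (45.8 to 77.2) in RPMI-8402, at chr6:41908593-41909782, and 1179 bp wide with 84 (67.0 to 104) in Jurkat, at chr6:41908546-41909724. Its summit lay 107092 bp in RPMI-8402 and 107056 bp in Jurkat from the summit at the outermost start, and on GRCh38 the inner start lies 106880 bp from the outermost one. The summit ratio was 0.804 (0.567 to 1.13), and the 10-kb counts, 840 in RPMI-8402 and 696 in Jurkat, had a ratio of 1.35 (1.22 to 1.497). The last peak of the window, with 87 fragments (69.7 to 107) in RPMI-8402 and 149 (126 to 175) in Jurkat, lay 127444 and 127509 bp from the summit at the outermost start. On GRCh38 the starts of MED20, a subunit of the Mediator complex, and BYSL, a ribosome assembly factor, lie 127745 and 127189 bp from it. Its ratio was 0.657 (0.498 to 0.861), and its 10-kb ratio of 0.747 (0.659 to 0.846) had the same direction.

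**Figure D3:**
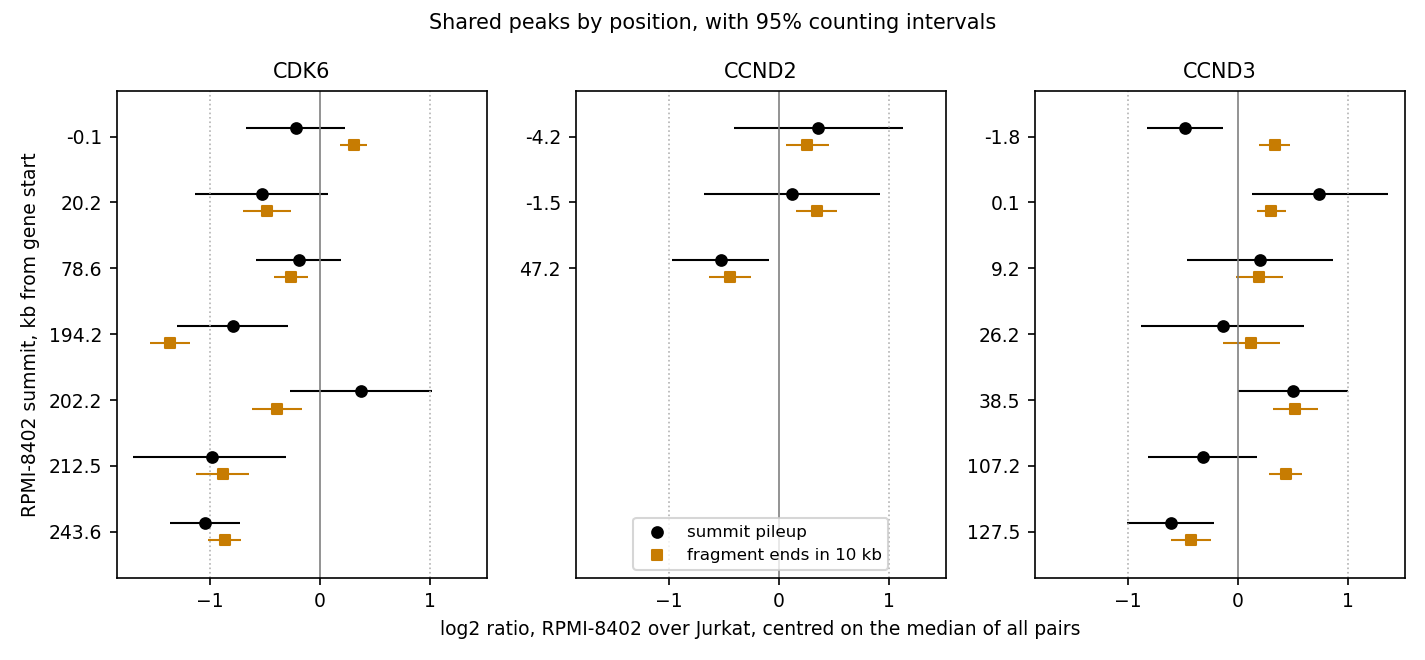
Log2 ratio of RPMI-8402 over Jurkat (horizontal axis), centred on the median of all pairs, for each shared pair ordered by distance from the gene start (vertical axis, kb), for the summit pileup (black circles) and the fragment ends in the surrounding 10 kb (orange squares), with 95% counting intervals and dotted lines at 2-fold. In CDK6 all squares but the one at the start lie below 0, and in CCND3 all but the one at 127.5 kb lie above 0.

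The median log2 pileup ratio of the 7 CCND3 pairs was −0.13, with a range of −0.61 to 0.74, and it turned to 0.30 on the 10-kb counts, so no direction is given for the locus as a whole. The 87 pairs within 5 Mb had a median of 0.17. Summed pileups were 581 in RPMI-8402 over 6643 bp of peaks and 593 in Jurkat over 4844 bp, with means of 58.1 and 84.7 per peak and a scaled ratio of 1.10 (0.981 to 1.24).

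At the starts of CDK6 and CCND3 the 10 kb around the summits were rich in fragments, a measure that the choice of windows did not use. These counts include the peaks themselves and other peaks within the 10 kb. The background at the CDK6 start was 8.92 times the genome-wide value in RPMI-8402 and 8.38 times in Jurkat, and at the outermost CCND3 start 7.81 and 7.38 times, where the median over all peaks was 2.17 and 2.48 times. The peak nearest the CCND2 start had 3.90 times in RPMI-8402 and 3.58 times in Jurkat. The deposited fold enrichment at the CDK6 start was 4.12 in RPMI-8402, above 5.68% of peaks, and 6.92 in Jurkat, above 41.2%. At the outermost CCND3 start it was 3.62 in RPMI-8402 and 3.15 in Jurkat. The CCND3 start peaks ranked above only 1.98% of RPMI-8402 and 0.516% of Jurkat peaks by fold, although their pileups exceeded those of 66.7% and 51.6%. Backgrounds above the 90th percentile were found at 6 of the 22 RPMI-8402 and 4 of the 24 Jurkat peaks, and 5 and 2 of these lay within 3 kb of a gene start. The 10-kb windows of neighbouring summits overlap, so these counts are not independent.

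**Figure D4:**
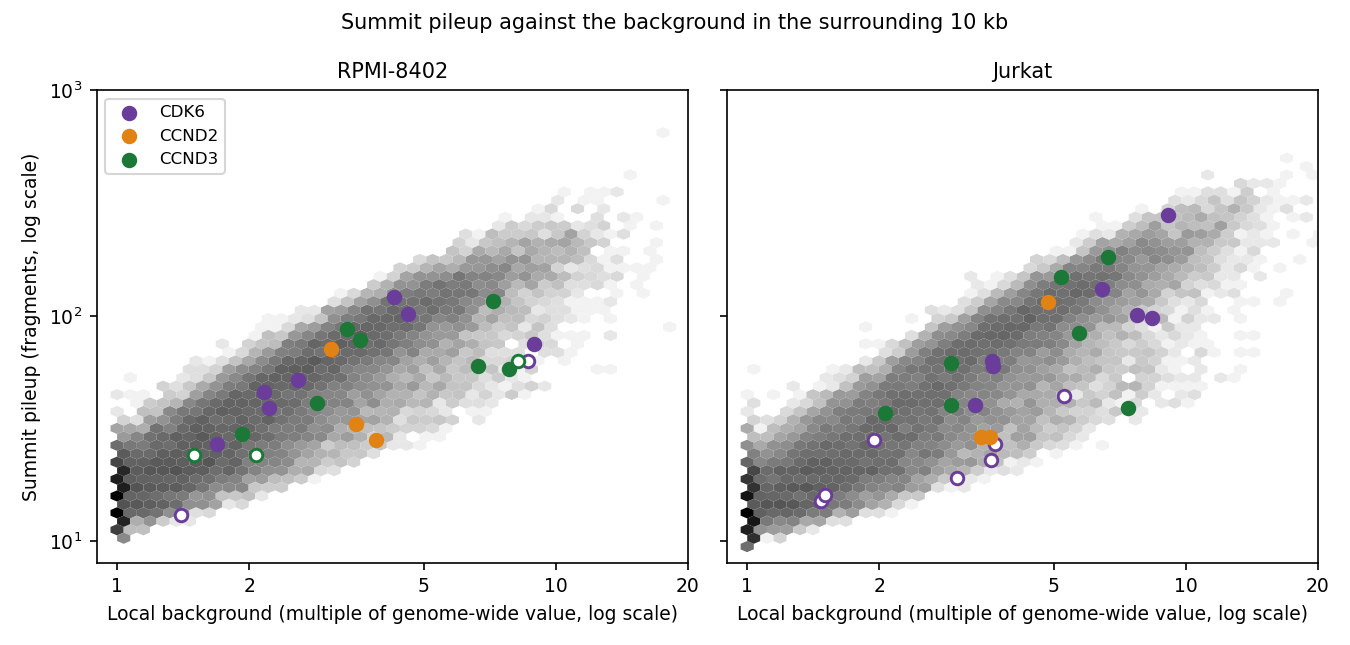
Summit pileup (vertical axis, fragments, log scale) against the local background (horizontal axis, multiple of the genome-wide value, log scale) in RPMI-8402 (left) and Jurkat (right), with all peaks as grey hexagons and the peaks of the 3 windows as coloured points, open where called in 1 line only. The points at the CDK6 start and the outermost CCND3 start lie toward the right of each panel, at 7.38 to 8.92 times the genome-wide background, with pileups of 39 to 98 fragments.

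Across the 3 windows, centred pileup ratios split 6 above and 11 below 0 on the log2 scale. The split was 5 above and 12 below unscaled, and 2 above and 15 below when scaled by the genome-wide backgrounds, which puts the median of all pairs at −0.47. Counting intervals lay above the median ratio for 2 of 17 pairs, both in CCND3, and below it for 6, of which 3 were in CDK6, 1 in CCND2 and 2 in CCND3. The shares over all pairs were 18.8% and 19.9%. Of the 6 lower pairs, 4 lay outside the gene bodies, beyond the gene ends or upstream of CCND3, in stretches that hold neighbouring genes. Pairs with summits in the gene bodies had 2 intervals below and 2 above. The lower pair upstream of CCND3 lay within 2 kb of the start and is counted here as outside. Which gene the outside pairs belong to was not tested.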

How the data were processed

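ATAC-seq peaks of RPMI-8402 and Jurkat, 1 library each of paired-end 150-bp reads per the labels, were analysed as deposited. The submitters' processing notes give the build as hg19 and list MACS2 2.1.1.2016030, SAMtools, Picard and Bowtie2, with no roles or filters. Peaks were called per library. The authors deposited, for each peak, a score, a fold ratio against the local background and the −log10 values of p and q. The score was not used.

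Pileup and background were solved from fold and p, with 1 added to both parts of the fold, as MACS2 does, and p as the upper Poisson tail. Pileups were whole within 0.01 in 100% of peaks. Backgrounds above the genome-wide 1.96 in RPMI-8402 and 1.59 in Jurkat were multiples of 1 step in 100% of values (within 0.05 of a step, chance 10%), read here as fragment ends in 10 kb, MACS2's usual window. The size of each library is not given. Read this way, the steps correspond to mean fragments of 309 bp in RPMI-8402 and 261 bp in Jurkat. The effect of this difference on pileups and widths was not tested. The lowest called pileup was 10 in RPMI-8402 and 9 in Jurkat. The solving step was tested on simulated data and recovered 100% of 24603 and 25189 pileups, which does not test the formula.

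Shares have exact binomial, pileups exact Poisson and ratios exact conditional 95% intervals. A callable peak was taken to need −log10 p of 5. Named peaks were those at gene starts, the strongest, the line-only ones and the pairs with the extreme ratios, and nearly all members are given. The gene intervals and windows come with the rule. The direction of CCND2 is background knowledge, and CCND2 is not in the promoter table. Exons, introns and UTRs, and the other G1 genes planned for comparison, were not analysed here, as they need an hg19 annotation. Members and lists were chosen with earlier results of these data known. The 10-kb counts were added after seeing the data. Mitochondrial peaks were left out. Calculations used scipy 1.17.1 and pandas 2.3.3 on numpy 2.4.6, under Python 3.11.15, and figures matplotlib 3.10.9.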

Additional observations from a re-analysis of the deposited data

How the results depend on the processing

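Of 132 alternative values 102 stayed within counting error or 1.5 times and 30 did not. This is a loose measure, as many of the intervals are wide. A change of sign inside an interval counted as staying, as for the CCND2 median, 0.12 in the main setting, −0.05 unscaled and −0.13 on the deposited fold. For locus medians the interval width was taken from the summed pileups of the shared pairs. Kept to the 10000 strongest peaks per list, RPMI-8402 and Jurkat had 4 and 6 peaks at CDK6, 1 and 1 at CCND2 and 3 and 4 at CCND3, and 100% of the RPMI-8402 but 75% of the Jurkat peaks at CCND3 were shared. At −log10 q of at least 10, Jurkat had 9 CDK6 peaks, 77.8% shared. Fewer peaks entered both settings. Scaling by genome-wide background, which lowers every log2 ratio by 0.47, put the strongest peaks near the starts at −0.69 (CDK6) and −0.95 (CCND3), locus medians at −0.99 (CDK6), −0.35 (CCND2) and −0.60 (CCND3), pairs at least 2-fold different at 3 (CDK6) and 1 (CCND3), and ratios of summed pileups at 0.462 (CDK6), 0.619 (CCND2) and 0.795 (CCND3). The CDK6 median was −0.69 unscaled, −0.27 centred on the chromosome and −0.10 on the deposited fold, with 2, 0 and 0 pairs at least 2-fold different, and 0 centred on 5 Mb. With 10-kb counts, chosen after seeing the data, the strongest peaks near the starts stood at 0.31 (CDK6) and 0.34 (CCND3) and the CCND3 median at 0.30. Without line-only peaks the summed CCND3 ratio was 0.892. For the other changed values the cause was not tested. No paired analysis was possible because RPMI-8402 and Jurkat have 1 library each, and for the same reason none was left out. Sites under the lowest called pileups, 10 in RPMI-8402 and 9 in Jurkat, cannot be seen at this depth.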

Other observations

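The nearest peaks outside the windows lay 12.4 to 198 kb from the limits, and wider windows were not tried. Below the CDK6 window the nearest peak outside it lay 42.1 kb from the limit in RPMI-8402, with a pileup of 173, and 12.4 kb from it in Jurkat, with a pileup of 13. Above it a shared peak lay 13.8 kb away in RPMI-8402, with 14 fragments, and 13.9 kb away in Jurkat, with 16. At CCND2 the nearest outside peaks were 25.9 kb below (42 fragments) and 74.4 kb above (17 fragments) in RPMI-8402, and 47.8 kb below (14 fragments) and 198 kb above (102 fragments) in Jurkat. At CCND3 they were 16.8 kb below (92 fragments) and 42.1 kb above (47 fragments) in RPMI-8402, and 16.7 kb below (117 fragments) and 156 kb above (24 fragments) in Jurkat.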
